A study of Homo sapiens with 8 samples.

Results

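Homologous recombination and the Fanconi anaemia pathway were followed here through 35 genes, taken from a list of gene symbols that applies no threshold to their values, although earlier results of these data were known when it was made. All 35 were found among the 24351 genes of the table, and all 35 were tested. Levels are FPKM, fragment counts scaled to transcript length and library size, summed over the 215 listed transcripts of these genes. The cells were ARP1 and H929, cell lines established from human multiple myeloma, the cancer that plasma cells give rise to. Each line was sequenced once in every genotype named by the labels: CHEK1 overexpression with a control of its own, and CHEK1 knockdown with another control. That gives 8 libraries, 4 per line and 2 per genotype. The means of raising or lowering CHEK1, the number of clones and the number of cultures behind a library are not given in the sources used here. The lines therefore stood as replicates for each genotype, so a p-value here speaks only of the spread among these 8 libraries, which may be technical.

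Homologous recombination copies lost sequence at a DNA double-strand break from the sister chromatid. Nucleases first trim the break to single-stranded DNA, BRCA proteins and their partners load a recombinase onto it, helicases drive the search and the exchange, and other enzymes take the joined molecules apart. The Fanconi anaemia pathway clears crosslinks that tie both DNA strands together: a core complex attaches ubiquitin to the FANCD2 and FANCI pair, which brings in nucleases, and the resulting break is passed to recombination. CHEK1 encodes CHK1, the kinase that holds damaged S and G2 phase cells and phosphorylates several of these proteins. Myeloma treatment includes crosslinking drugs, whose lesions this pathway handles.

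CHEK1 was the check of the labels. Its FPKM in ARP1 was 78.2 in the control of overexpression, 114 in overexpression, 61.0 in the control of knockdown and 51.6 in knockdown, and in H929 it was 81.6, 107, 80.7 and 84.8 in the same order. Both overexpression libraries were the highest of their line, while the H929 library labelled knockdown did not hold less CHEK1 than its control. In limma with Benjamini-Hochberg adjustment the log2 difference was 0.47 for overexpression (SE 0.20, adjusted p = 0.994) and -0.08 for knockdown (adjusted p = 0.903). In the ARP1 knockdown step CHEK1-209, of 661 nt, went from 11.4 to under 0.01 and CHEK1-218, of 1653 nt, from 16.7 to 12.5. CHEK1-203 went from 12.3 to 12.8 and CHEK1-204 from 5.37 to 7.43. With overexpression in ARP1, CHEK1-208, of 562 nt, went from 23.5 to 38.5 and CHEK1-218 from 18.4 to 27. Any direction given below for knockdown therefore refers to the library so labelled. Summed FPKM was 631871 to 693299 per library and depth in reads is unknown. The 8 plasma cell and myeloma markers summed to 1810 to 2490 FPKM in ARP1 against 1270 to 1590 in H929. Of the T and NK cell markers, CD3D and NKG7 were at 0 and the sum reached 14.3, and those of myeloid, stromal or epithelial, and erythroid cells summed to at most 2.48, 17.1 and 1.91.

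Promoter sequence was set beside the levels, because the list was chosen by function and not by sequence. RefSeq windows of 300 bases, from 250 before the annotated start to 50 after it in build GRCh38.p14, were matched by symbol for 30 of the 35 genes (RAD54B, DNA2, RMI2, NBN and FANCI had none). The core letters recognised by E2F factors, which drive S phase genes, were searched on both strands as TTCCCGC, as the variant TTGGCGC, as the variant TTCGCGC and as the variant TTGCCGC. At least 1 of these lay in the windows of 19 of 30 genes, or 63.3%, against 24.7% of 9953 tested genes with a window and 15.3% of all 27305 genes in the table. For CCAAT, searched on both strands as well, the share was 46.7%, or 14 of 30, against 43.4% and 39.7%. GC content did not set the windows apart, with a median of 64.3% for the listed genes and 64.3% for tested genes. A gene counted if any of its windows matched, and the 30 genes had 41 windows. Windows per gene were not compared with those of tested genes. A match is only a match of letters.

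The sequences of 5 genes are shown up to the base before the start, 5′ to 3′ on the strand of the gene, with E2F core letters and CCAAT (or ATTGG, its complement) in capitals. FANCL, XRCC3, FANCF and FANCC were chosen because they had the largest differences between the lines among called genes with a window, and RMI1 because its window held 3 E2F core matches. No match overlaps another in the bases shown.
FANCL, chr2:58241326-58241575, minus strand: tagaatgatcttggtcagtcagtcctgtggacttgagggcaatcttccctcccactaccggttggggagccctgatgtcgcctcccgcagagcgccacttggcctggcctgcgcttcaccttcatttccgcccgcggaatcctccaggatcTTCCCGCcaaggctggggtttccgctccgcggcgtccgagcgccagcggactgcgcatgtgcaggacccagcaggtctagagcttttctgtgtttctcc
XRCC3, chr14:103715452-103715701, minus strand: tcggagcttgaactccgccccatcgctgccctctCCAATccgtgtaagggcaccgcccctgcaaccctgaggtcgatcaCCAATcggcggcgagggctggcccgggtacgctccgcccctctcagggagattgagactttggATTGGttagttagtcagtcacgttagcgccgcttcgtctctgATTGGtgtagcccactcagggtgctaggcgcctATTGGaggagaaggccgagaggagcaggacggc
FANCF, chr11:22625824-22626073, minus strand: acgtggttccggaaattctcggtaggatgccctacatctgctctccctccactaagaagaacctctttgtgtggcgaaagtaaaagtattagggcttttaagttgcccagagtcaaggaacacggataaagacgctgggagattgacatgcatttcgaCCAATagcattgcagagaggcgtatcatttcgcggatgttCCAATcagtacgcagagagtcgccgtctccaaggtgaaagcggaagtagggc
FANCC, chr9:95317710-95317959, minus strand: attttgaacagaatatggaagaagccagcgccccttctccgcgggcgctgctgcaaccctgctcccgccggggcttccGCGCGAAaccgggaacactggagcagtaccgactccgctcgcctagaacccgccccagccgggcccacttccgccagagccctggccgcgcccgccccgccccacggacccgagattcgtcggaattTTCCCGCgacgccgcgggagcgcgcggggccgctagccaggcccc
RMI1, chr9:83980555-83980804, plus strand: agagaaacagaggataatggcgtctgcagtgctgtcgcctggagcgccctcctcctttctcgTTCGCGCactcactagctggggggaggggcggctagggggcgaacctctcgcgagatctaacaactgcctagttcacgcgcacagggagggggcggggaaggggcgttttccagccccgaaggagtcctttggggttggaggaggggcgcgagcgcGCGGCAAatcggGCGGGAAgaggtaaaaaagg

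FANCL held 1 E2F core match, 99 bases before the start, and no CCAAT. In XRCC3 the upstream bases held 5 CCAAT matches and no complete E2F core match, and in FANCF they held 2 and none. An E2F core match that runs across or lies after the start, not printed, was present in both of these genes. FANCC held 2 E2F core matches in the window shown and RMI1 held 3. Genes that were higher in ARP1 (FANCF) and lower in ARP1 (FANCL, FANCC) thus shared these letters.

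All 35 genes stood at 1 FPKM or more in all 8 libraries. The median of their means over the libraries was 20.7 FPKM, against 10.7 for the 14905 genes tested, and 29 of the 35 lay above that latter median. FANCI, which forms a clamp on DNA with FANCD2, had the highest mean, 107 FPKM, of which transcripts under 1000 nt made up 47.5%. SLX4, the scaffold on which structure-cutting nucleases sit, had one of the lowest, with a range of 3.70 to 5.63. RAD54B, a relative of the recombination motor RAD54L, held the lowest single value, 2.70 FPKM in the H929 control of overexpression. The levels varied about as much as those of other genes: the SD of log2(FPKM + 1) over the 8 libraries had a median of 0.27, against 0.29 for 8950 tested genes in the same range of mean level. In 12 of the 35 genes the highest library was 2-fold or more above the lowest.

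**Figure D1:**
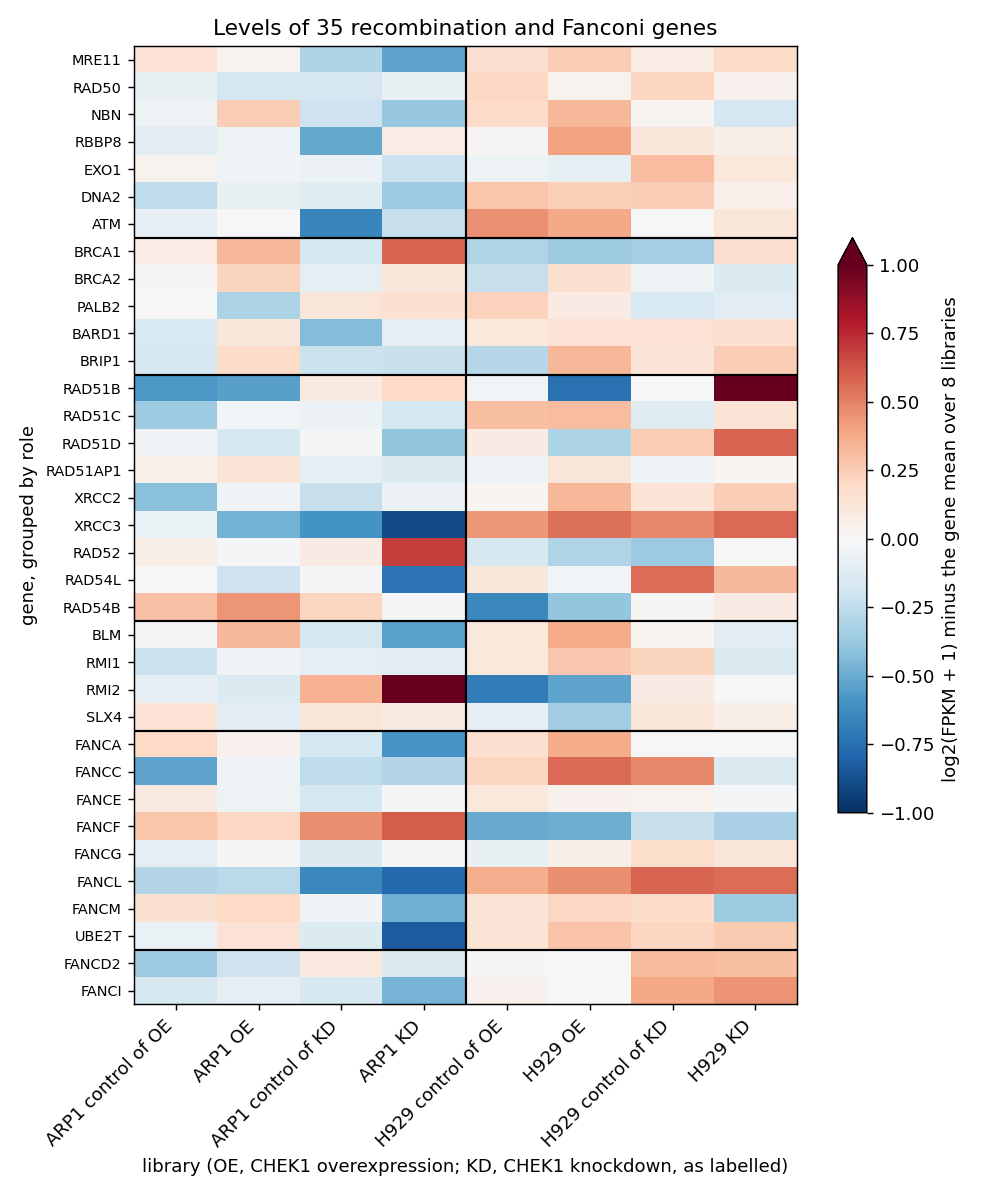
Each row is 1 of the 35 genes, grouped by role, and each column 1 library; colour gives log2(FPKM + 1) minus the gene's mean over the 8 libraries, cut at 1. The left block (ARP1) is bluer in most rows and the right block (H929) redder, with FANCF, RMI2, RAD54B, BRCA1 and RAD52, and more weakly BRCA2 and SLX4, the other way, and RAD51B stands out in the H929 library labelled knockdown.

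The comparison of the lines had 4 libraries a side, where each genotype had 2. More of the 35 genes, and more of all tested genes, were called between the lines than in any other comparison. Of the 35, 4 were called higher in ARP1 (BRCA1, RAD52, RMI2 and FANCF) and 6 were called higher in H929 (XRCC2, XRCC3, DNA2, ATM, FANCC and FANCL). By limma with Benjamini-Hochberg adjustment that makes 10 called of 35, and 27.1% of all tested genes were called in the same contrast (13.7% higher and 13.4% lower in ARP1). The share called, 28.6%, was thus near the background. In bulk cultures, fewer cells holding an RNA and less of it per cell cannot be told apart. In sign the genes leaned one way: 28 of 35 log2 differences were negative, that is lower in ARP1, against 49.9% of all tested genes. That count was 25 of 35 with FPKM weighted by length and 24 of 34 without transcripts under 1000 nt. Their median was -0.25, against 0.00 over all genes tested. Taken genotype by genotype, the median of ARP1 minus H929 was -0.11, -0.11, -0.26 and -0.24, so that it was below 0 in each of the 4 pairs of libraries. In 7 genes all 4 ARP1 libraries lay below all 4 H929 libraries (XRCC2, XRCC3, RAD50, DNA2, ATM, FANCI and FANCL) and in 1 gene, FANCF, all lay above, where 27% of all tested genes had lines that did not overlap.

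**Figure D2:**
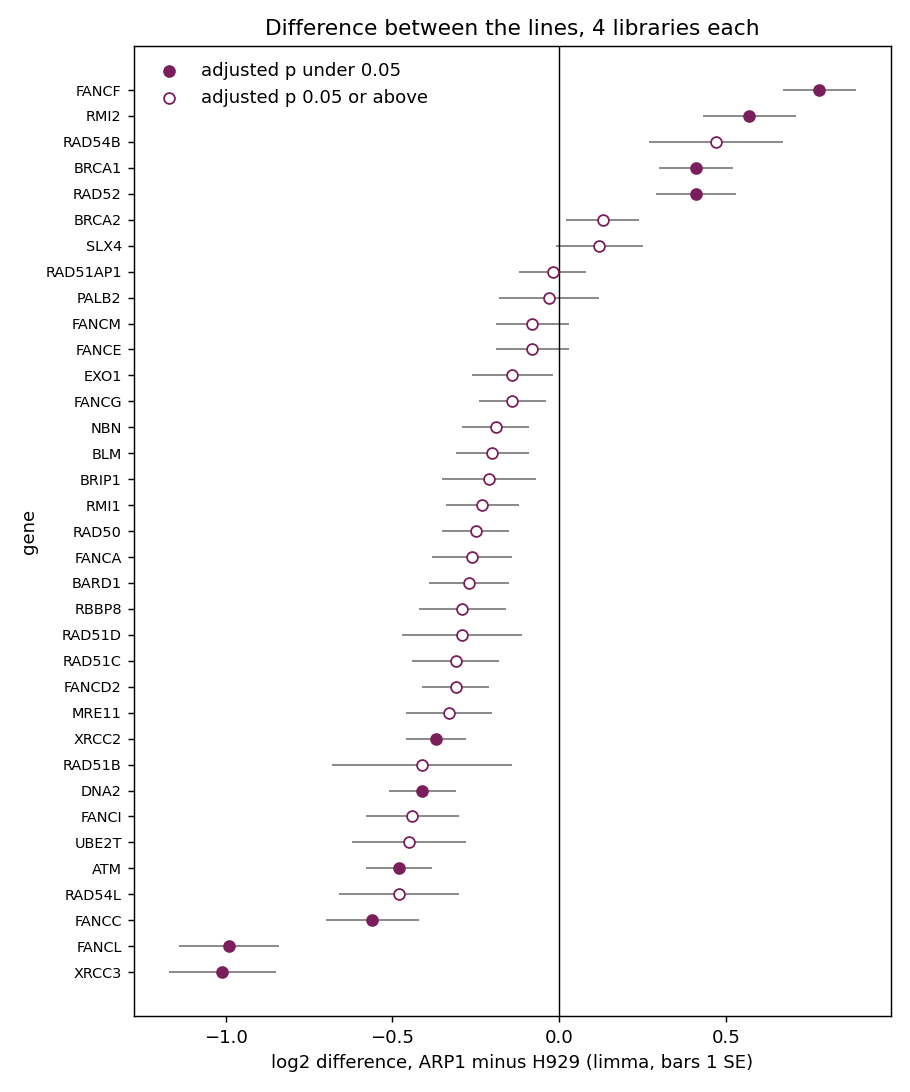
Points give the log2 difference of ARP1 minus H929 for each of the 35 genes from limma (n = 4 libraries per line) and bars 1 SE; filled points have an adjusted p under 0.05. Most points lie left of 0, with XRCC3 and FANCL farthest left and FANCF farthest right.

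In break sensing and end resection all 7 genes had a negative log2 difference, with a median of -0.29, except that NBN turned to 0.05 with FPKM weighted by length and to 0.09 without transcripts under 1000 nt. Of the 7, 2 were called, against 27.1% of all genes. ATM, the kinase that answers double-strand breaks, stood at 38.6, 41.0, 25.6 and 34.8 FPKM in ARP1 (control of overexpression, overexpression, control of knockdown and knockdown, the order used throughout) and at 56.5, 53.6, 41.1 and 44.5 in H929. Each H929 library was above all of ARP1, by a narrow gap between 41.0 and 41.1. The log2 difference was -0.48 (SE 0.10, adjusted p = 0.0146 by limma), a 1.40-fold higher level in H929. DNA2, a nuclease and helicase of long-range resection, stood at 20.5, 23.4, 22.6 and 19.0 in ARP1, against 30.2, 29.3, 29.5 and 25.6 in H929. The lines did not overlap and differed by -0.41 (SE 0.10, limma adjusted p = 0.0227).

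The MRN complex holds broken ends together and starts their trimming. Its 3 genes were not called: MRE11, the nuclease, differed by -0.33 (limma adjusted p = 0.112), RAD50, the ATPase, by -0.25 (0.102) and NBN, which recruits ATM, by -0.19 (0.174). For RAD50 the ranges did not overlap all the same, with 22.1 to 23.8 FPKM in ARP1 against 25.8 to 29.3 in H929. RBBP8, which encodes the MRE11 cofactor CtIP, ranged from 18.6 to 28.4 in ARP1 and 27.2 to 35.8 in H929. The exonuclease EXO1 ranged from 26.8 to 32.0 and 29.4 to 38.9, so both overlapped between the lines.

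Among the BRCA complexes 1 gene of 5, BRCA1, was called between the lines, against 27.1% of all genes. It was higher in ARP1, with BRCA2 of the same sign and the other 3 of the opposite sign. BRCA1, the ubiquitin ligase that promotes resection and brings in the loaders of the recombinase, lies on the minus strand of chromosome 17 at 43044295 to 43170245. It stood at 44.1, 53.0, 36.9 and 63.2 FPKM in ARP1 and 33.8, 32.5, 32.9 and 47.1 in H929. ARP1 was higher in each genotype, while the ranges overlapped because of the H929 library labelled knockdown. The log2 difference was 0.41 (SE 0.11, limma adjusted p = 0.0367). Its partner in the ligase, BARD1, differed by -0.27 (adjusted p = 0.136), with 12.4 to 18.6 FPKM in ARP1 against 18.4 to 19.2 in H929. BRIP1, a helicase bound by BRCA1, differed by -0.21, PALB2, the bridge between the BRCA proteins, by -0.03, and BRCA2, the loader itself, by 0.13. These last 3 stood between 6.81 and 12.8 FPKM in all libraries and overlapped between the lines.

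The recombinase paralogues, mediators and partners held the largest difference. XRCC3, a paralogue that works in a pair with RAD51C on nascent filaments, lies on the minus strand of chromosome 14 at 103697609 to 103715504 (GRCh38, as are all gene positions). It stood at 17.8, 13.2, 12 and 9.57 FPKM in ARP1 and at 25.5, 27.8, 26.4 and 28.1 in H929. The lines were far from overlapping, and ARP1 was the more spread of them (13.2 ± 3.43 SD against 27.0 ± 1.2, n = 4 libraries each). The log2 difference was -1.01 (SE 0.16, limma adjusted p = 0.00676), or 2.02-fold higher in H929. Within ARP1 the lowest value was in the library labelled knockdown and the highest in the control of overexpression, an order that H929 did not show.

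XRCC2, of the 4-member paralogue complex that also holds RAD51B, RAD51C and RAD51D, stood at 17.4, 23.0, 20 and 22.6 in ARP1, against 24.0, 30.0, 26.1 and 28.2 in H929. These did not overlap, and the log2 difference was -0.37 (SE 0.09, limma adjusted p = 0.028). The other three complex members had negative differences that were not called: RAD51B by -0.41 (adjusted p = 0.292), RAD51C by -0.31 (0.117) and RAD51D by -0.29 (0.277). For RAD51B the sign turned to 0.03 with FPKM weighted by length and to 0.33 without transcripts under 1000 nt. RAD52, which anneals single strands and is a back-up to BRCA2, went the other way, with 15.0, 14.1, 15.2 and 23.6 in ARP1 and 12.7, 11.4, 10.9 and 14.2 in H929. It overlapped at its edge (14.1 against 14.2), with a log2 difference of 0.41 (SE 0.12, limma adjusted p = 0.0458).

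RAD54L, the motor that moves recombinase filaments along duplex DNA, ranged from 8.09 to 14.2 FPKM in ARP1 against 13.9 to 21.4 in H929 (log2 difference -0.48, limma adjusted p = 0.0848). RAD54B had the opposite sign (0.47, adjusted p = 0.13), with 4.75 to 6.86 in ARP1 and 2.70 to 5.12 in H929. RAD51AP1, an accessory factor of strand invasion, had, with FANCE, the smallest ratio of highest to lowest library, 1.24, and differed by -0.02. The lean toward H929 was therefore not shared by all partners.

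Among the genes that dissolve or cut joined molecules, RMI2 was called and BLM, RMI1 and SLX4 were not. RMI2, a small subunit of the complex around the BLM helicase, stood at 21.2, 20.3, 28.8 and 46.2 FPKM in ARP1 and at 13.5, 15.3, 23.8 and 22.4 in H929. ARP1 was higher at each genotype, the ranges overlapped, and in both lines the libraries of the knockdown arm, control included, were above those of the overexpression arm. The line difference was 0.57 (SE 0.14, limma adjusted p = 0.0282). BLM differed by -0.20 (adjusted p = 0.216) and RMI1, another subunit of that complex, by -0.23 (0.166). SLX4 differed by 0.12 (0.497).

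The Fanconi core complex held differences of both signs. FANCL, the ubiquitin ligase subunit, lies on the minus strand of chromosome 2 at 58159243 to 58241372. It stood at 17.4, 17.7, 13.4 and 12.1 FPKM in ARP1 and at 28.0, 30.1, 32.7 and 32.1 in H929. Every H929 library was far above every ARP1 library, and the log2 difference was -0.99 (SE 0.15, limma adjusted p = 0.00552), or 1.98-fold. FANCF, an adaptor that holds the complex together and is made from a single exon, lies on the minus strand of chromosome 11 at 22622890 to 22625841. It stood at 12.7, 12.1, 14.6 and 16.2 in ARP1, against 7.00, 7.08, 8.65 and 8.03 in H929. Here all ARP1 libraries were above all H929 libraries, by 0.78 (SE 0.11, limma adjusted p = 0.00462) or 1.71-fold.

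FANCC, which binds FANCF and FANCE within the core, stood at 6.06, 8.89, 7.56 and 7.31 in ARP1, against 10.8, 14.1, 13.2 and 8.19 in H929. The lines overlapped through the H929 library labelled knockdown (8.19 against 8.89), and the difference was -0.56 (SE 0.14, limma adjusted p = 0.0286). This value rested on a short transcript: FANCC-204, of 591 nt, was listed at 5.06, 7.48 and 6.44 FPKM in the first 3 H929 libraries and 0.0261 in the fourth, and at 3.08 and 2.48 in overexpression and the control of knockdown of ARP1 and under 0.01 in its other 2 libraries. With FPKM weighted by transcript length the difference was -0.22 and was not called (limma adjusted p = 0.182). The main transcript, FANCC-201 of 4592 nt, overlapped between the lines, at 2.71 to 5.16 in ARP1 and 4.12 to 5.55 in H929.

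The other core genes were not called. UBE2T, the conjugating enzyme that works with FANCL, differed by -0.45 (limma adjusted p = 0.0958), with 15.0 to 30.5 FPKM in ARP1 against 30.3 to 33.7 in H929. FANCA, which pairs with FANCG, differed by -0.26 (0.157) and FANCG by -0.14 (0.344). FANCM, the translocase that docks the complex on DNA, and FANCE each differed by -0.08.

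Both substrates of the core complex had negative differences that narrowly missed the threshold. FANCD2 stood at 24.0, 26.9, 33.3 and 28.0 FPKM in ARP1 and 31.3, 31.0, 38.9 and 38.6 in H929, a difference of -0.31 (SE 0.10, limma adjusted p = 0.0555) with overlap between the lines. In FANCI the values were 93.7, 97.4, 93.3 and 75.4 in ARP1 and 108, 105, 137 and 143 in H929. The lines did not overlap for FANCI, and the difference was -0.44 (SE 0.14, limma adjusted p = 0.0624). Each of the pair was called in 5 of 22 alternative settings.

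**Figure D3:**
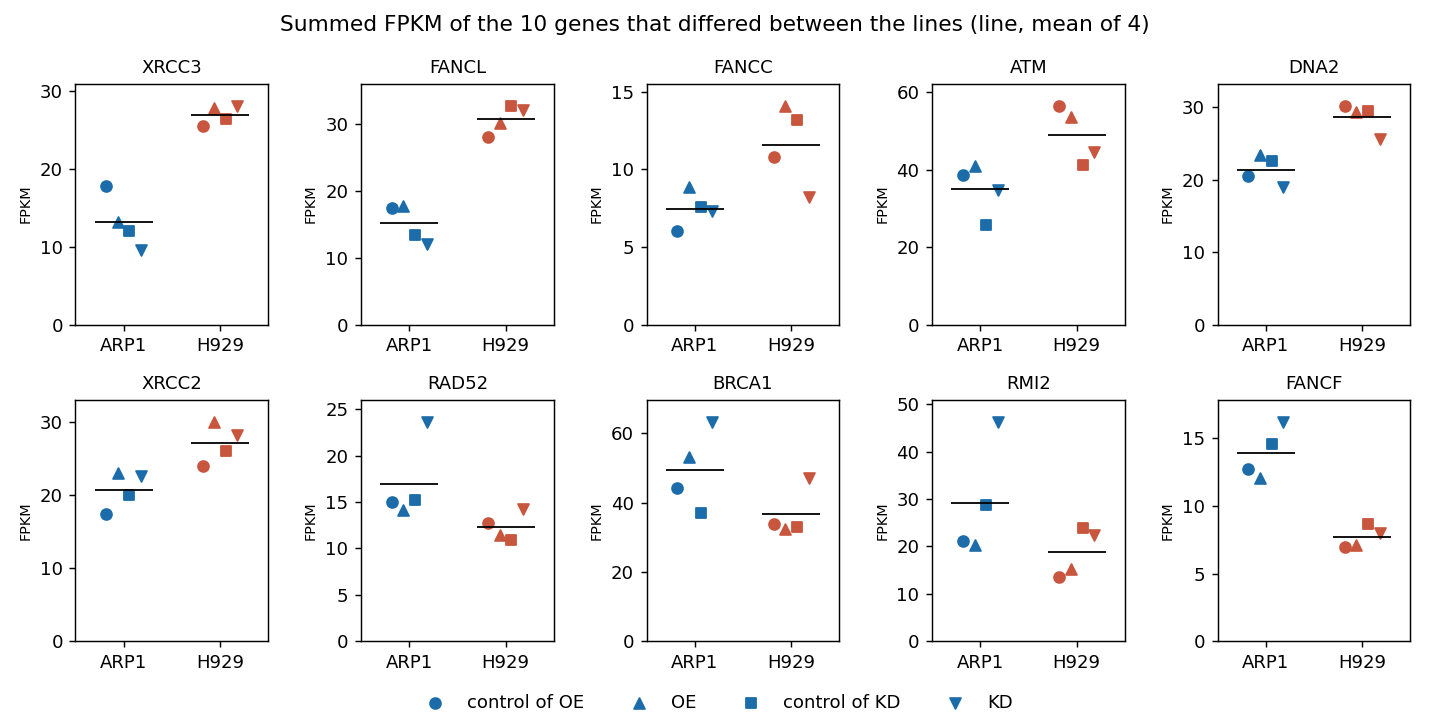
FPKM of the 10 genes called between the lines, with 1 marker per library (shape gives the genotype as labelled) and a line at the mean of the 4 libraries of each cell line. XRCC3, FANCL, ATM, DNA2 and XRCC2 have all ARP1 markers below those of H929, FANCF has them above, and FANCC, RAD52, BRCA1 and RMI2 overlap.

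The calls differed in how far they depended on the settings. XRCC3, FANCL and FANCF were called in 22 of 22 alternative settings, with log2 differences of -1.18 to -0.85, -1.10 to -0.87 and 0.73 to 0.84. ATM and DNA2 were called in 16, XRCC2 and RMI2 in 15, BRCA1 and FANCC in 12 and RAD52 in 10. Of the 8 fits that leave out 1 library each, ATM and RMI2 were called in 4, DNA2, XRCC2, BRCA1 and FANCC in 2 and RAD52 in 0. These 8, part of the 22, form 4 pairs, 1 for each genotype. The 2 fits of a pair rest on the same remaining pairs of libraries for the line difference, so they are not separate evidence.

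Overlapping and neighbouring genes bear on what these sums hold, since whether the counting used strand is not stated in the labels or files used here. An exon of 19 of the 35 genes overlaps an exon of another gene, on the opposite strand in 16. The 10 called genes have 13 such partners, of which 8 were tested. Limma called 4 of these, each with the sign of its gene. KLC1, which overlaps XRCC3, differed by -0.88 (limma adjusted p = 0.00506), with 28.9 to 38.0 FPKM in ARP1 against 56.2 to 70.4 in H929. GAS2, which overlaps FANCF, differed by 1.46 (adjusted p = 0.00119), and NPAT, which overlaps ATM, by -0.55 (0.0104). The other called partner was AC060780.1, on the strand of BRCA1, at 0.66 (0.0187). Not called were VRK2 over FANCL (-0.35, 0.0548), C11orf65 over ATM (-0.53, 0.0677), AC004803.1 over RAD52 (0.83, 0.153) and AL354893.2 over FANCC (-0.06, 0.901). How many reads these pairs share was not tested.

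The same lean was seen farther out along the chromosome. Of the 20 other tested genes within 1 Mb of XRCC3, 18 were lower in ARP1, 14 of them called, and their median log2 difference was -0.86. For RAD52, 14 of 15 neighbours had its sign with a median of 0.55, for ATM 12 of 12 with -0.52, for RMI2 26 of 29 with 0.31, and for BRCA1 48 of 56 with 0.24. FANCF had 4 tested neighbours, 3 of them with its sign (median 0.90), XRCC2 had 4 of 4 (-0.32), and FANCL had only 1, which had its sign. For FANCC 8 of 13 and for DNA2 9 of 20 had the sign of the gene, with medians of -0.06 and 0.07. Counted together, 143 of 174 neighbours of the 10 called genes, or 82.2%, had the sign of their gene, against 69.5% of the 95943 pairs formed by every gene called between the lines and its neighbours. Uncalled genes varied: FANCD2 stood in such a stretch as well, with 27 of 28 neighbours lower in ARP1, 15 of them called. By contrast, only 10 of 46 neighbours of FANCA had its sign, 6 of 25 for RAD51D and 3 of 15 for PALB2. These counts were added after the differences were seen, and neighbours are not independent of each other.

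Other genes of the same pathways were centred near 0. Of 33 further Fanconi and recombination genes 32 were tested, and their median line difference was -0.02, with 15 positive and 17 negative. Called higher in ARP1 were FAN1, RECQL5, BABAM2 and MUS81 (4 of 32, against 13.7% of all tested genes). Called lower were USP1, ZSWIM7, MAD2L2 and FAAP20 (4 of 32, against 13.4% of all). FAN1, a nuclease recruited by ubiquitinated FANCD2, stood at 4.52, 3.84, 4 and 5.16 FPKM in ARP1 and at 1.29, 0.766, 1.06 and 1.37 in H929, a log2 difference of 1.34 (SE 0.14, limma adjusted p = 0.00207). USP1, which takes ubiquitin off FANCD2 and FANCI, stood at 35.8, 48.9, 23.8 and 30.9 in ARP1, against 77.8, 92.9, 74.6 and 55.1 in H929 (-1.11, SE 0.14, adjusted p = 0.00382). Neither overlapped between the lines, though FAN1 in H929 lay near the filter of 1 FPKM. These are RNA levels, and neither the enzymes nor ubiquitination were measured in these data.

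For end joining and the choice between the repair routes, 19 genes had a median line difference of -0.01. MDC1, XRCC4 and NHEJ1 (3 of 19) were called higher in ARP1, and PAXX and DCLRE1C (2 of 19) lower. For 20 genes of S phase and proliferation the median was -0.04, with MCM3 called higher (1 of 20) and RRM2 and TYMS lower (2 of 20). Of all tested genes 13.7% were called higher in ARP1 and 13.4% lower. RRM2, the small subunit of ribonucleotide reductase, differed by -1.30 (SE 0.12, limma adjusted p = 0.00124). The negative median of the 35 genes was thus not matched by that of the proliferation list, and the difference between the lists was not tested.

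CHEK1 overexpression moved no gene of the list past the test. Limma with Benjamini-Hochberg adjustment called 0 of 35, and it called 0.00671% of all tested genes, which is 1 gene. At an unadjusted p under 0.05 there were 2 of the 35, BRIP1 and XRCC2, against 4.45% of all genes. The median log2 difference over the 35 was 0.06, with 23 positive, and it was 0.05 in ARP1 and 0.08 in H929. In both lines alike 16 genes were higher with overexpression (28% of all tested genes were) and 8 were lower (30.1% of all).

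BRIP1 stood at 7.49 in the control and 9.86 with overexpression in ARP1, and at 6.81 and 11 in H929. Both overexpression libraries were the highest of their line, but the H929 controls of the 2 arms themselves stood at 6.81 and 9.41. The log2 difference was 0.49 (SE 0.19, limma adjusted p = 0.994). It was 0.36 with FPKM weighted by length and 0.30 without transcripts under 1000 nt. XRCC2 went from 17.4 to 23.0 in ARP1 while it went from 24.0 to 30.0 in H929, a difference of 0.34 (SE 0.13, adjusted p = 0.994), again with the overexpression library the highest of each line. The control of overexpression was the lowest of each line, and the libraries labelled knockdown stood at 22.6 in ARP1 and 28.2 in H929. Past 1.5-fold within a line were 0 genes in ARP1 (11.5% of all tested genes) and 2 in H929 (8.93% of all). These were BRIP1 upward and RAD51B downward, each 1 library against 1 with no test. In the H929 step BRIP1-206, of 716 nt, went from 0.454 to 2.33 and BRIP1-201, of 6048 nt, from 4.94 to 6.64. RAD51B-215, of 249 nt, went from 2.26 to under 0.01 and RAD51B-201, of 922 nt, from 5.53 to 4.21.

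Knockdown, as labelled, also gave 0 of 35 calls in limma, against 0.0134% of all genes, which is 2 genes. Unadjusted p under 0.05 was reached by 3, BRCA1, RAD52 and FANCM, against 9.14% of all genes. The median log2 difference was -0.04, with 15 positive, and it was -0.04 in ARP1 and -0.01 in H929. Higher in both lines were 7 genes (27.2% of all) and lower in both were 11 (28.9% of all).

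BRCA1 had the smallest p of the list in this contrast. It went from 36.9 in the control to 63.2 in the ARP1 library labelled knockdown, and from 32.9 to 47.1 in H929. In each line the knockdown library was the highest of the 4. The log2 difference was 0.63 (SE 0.16, unadjusted p = 0.00558, limma adjusted p = 0.494). Its full-length transcript BRCA1-203, of 7207 nt, went from 16.9 to 23.5 in ARP1, but only from 15.8 to 15.9 in H929. The short BRCA1-228, of 718 nt, went from 3.71 to 14 and from 7.15 to 9.33, and BRCA1-224, of 779 nt, from 4.08 to 7.18 and from 0.668 to 6.92. Without transcripts shorter than 1000 nt, the difference of the gene was 0.40.

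RAD52 stood at 15.2 in the control and 23.6 in the knockdown library of ARP1, with 10.9 and 14.2 for H929 (log2 difference 0.48, limma adjusted p = 0.538). FANCM went from 8.31 to 5.85 in ARP1, and also from 9.81 to 6.45 in H929 (-0.49, adjusted p = 0.529). In both genes the library labelled knockdown was the extreme one of its line, highest for RAD52 and lowest for FANCM. The set of genes past 1.5-fold differed between the lines: 5 in ARP1 (25.9% of all tested genes), namely BRCA1, RAD52 and RMI2 upward and RAD54L and UBE2T downward, and 2 in H929 (9.49% of all), RAD51B upward and FANCC downward. FANCC-204 went from 6.44 to 0.0261 in that H929 step and FANCC-201 from 5.55 to 4.96. Over both lines the knockdown difference of FANCC, -0.33, turned to 0.23 with FPKM weighted by length and to 0.35 without transcripts under 1000 nt.

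**Figure D4:**
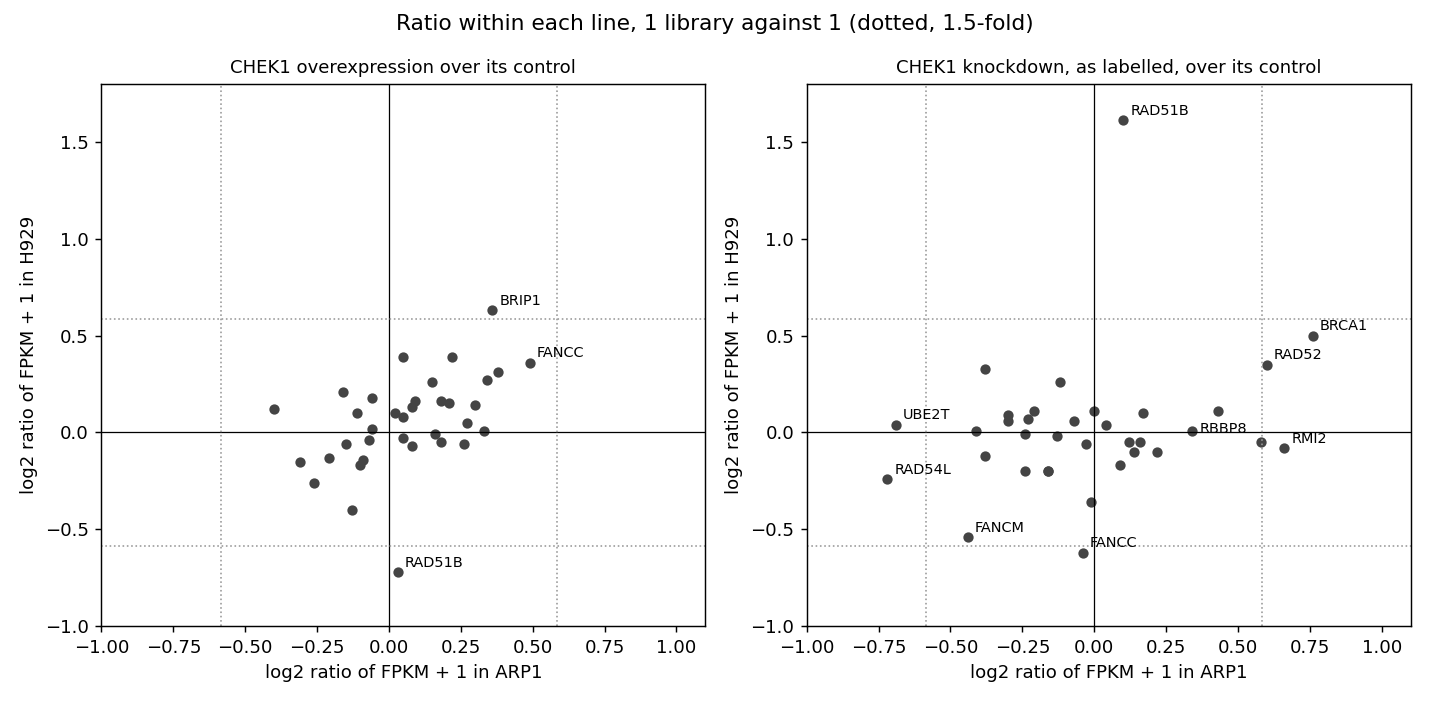
Each point is 1 of the 35 genes, placed by its log2 ratio of FPKM + 1 in ARP1 (across) and H929 (up), for overexpression on the left and knockdown as labelled on the right, with dotted lines at 1.5-fold. On the left most points lie within the dotted lines; on the right BRCA1 and RAD52 lie up and to the right, FANCM down and to the left, and RAD51B far up in H929 alone.

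The steps differed in the transcripts that carried them. RMI2-201, of 1457 nt, made up 99.3% of RMI2, and UBE2T had 1 transcript. RAD51B was listed at 9.92 in the H929 control of knockdown and at 32.4 in its library labelled knockdown, with 10.7 and 11.6 for ARP1, so the H929 value was far above the other 7 libraries. Of the 32.4 FPKM, 19.7 belonged to RAD51B-215, a transcript of 249 nt that was at 2.26 in the H929 control of overexpression and under 0.01 in the other 6 libraries. The main transcript, RAD51B-201 of 922 nt, went from 5.19 to 9.81 in H929 and from 7.73 to 5.48 in ARP1. Transcripts under 1000 nt made up 74.8% of the summed RAD51B level and 64.2% of that of RAD51C, against 0% in DNA2, XRCC2 and FANCF.

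**Figure D5:**
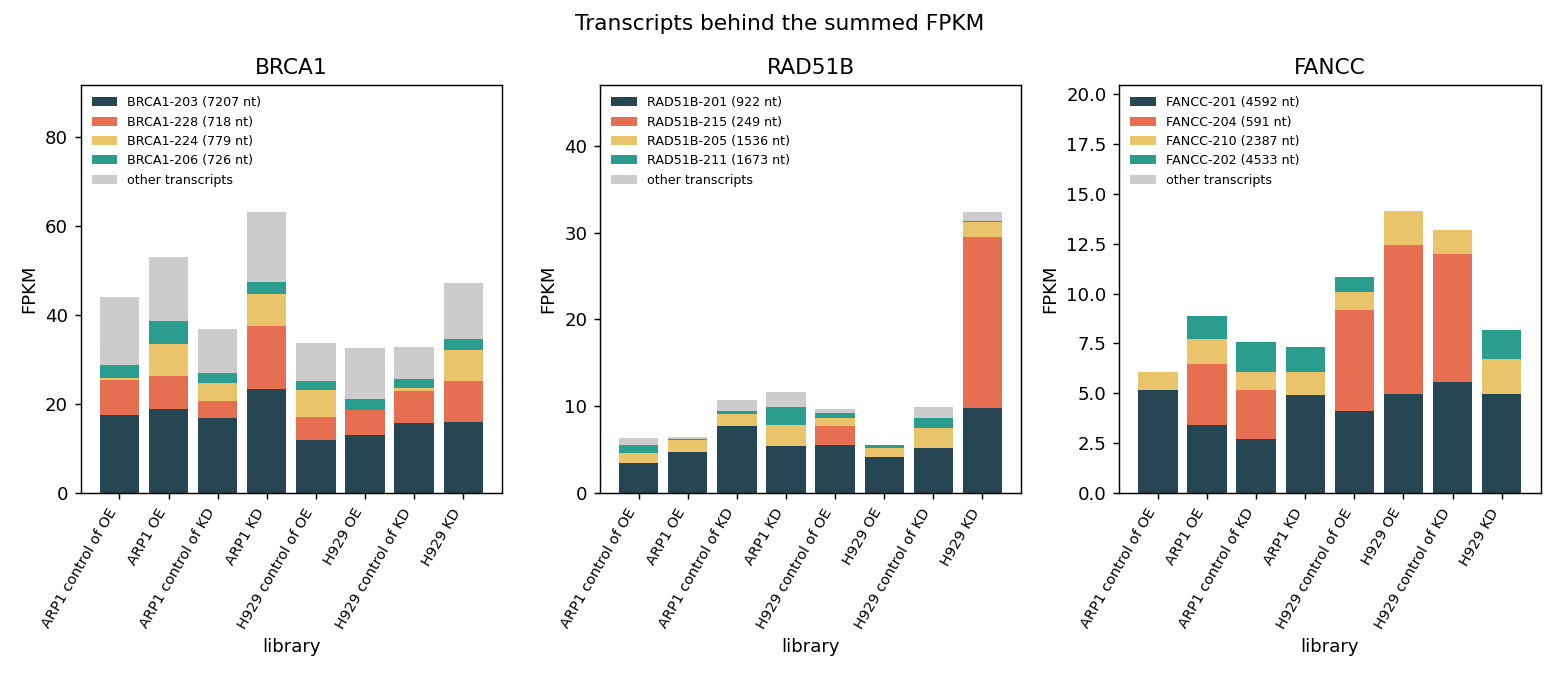
Bars give summed FPKM of BRCA1, RAD51B and FANCC in each library, split into the 4 transcripts with the highest mean and the rest, with lengths in nt. RAD51B-215 fills most of the bar of the H929 library labelled knockdown, and FANCC-204 sets the height of the first 3 H929 bars.

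Whether the lines differed in their response was tested with both controls of a line pooled. Limma called 0 of 35 for either effect, and 0% of all tested genes. Unadjusted p under 0.05 was reached by 0 of 35 for overexpression (1.87% of all genes) and by 3 for knockdown (7.79% of all), UBE2T, RAD51D and RAD51B. For RAD51D, the H929 library labelled knockdown held 37.1 FPKM and its control 29.4 (18.4 and 24.3 for ARP1). RAD51D-210, of 289 nt, made up 7.39 of that 37.1 and lay under 0.01 in the remaining 7 libraries. In RAD51B, 19.7 of its 32.4 FPKM there came from RAD51B-215, of 249 nt. The interaction was not tested without these short transcripts. UBE2T went from 24.9 to 15.0 in ARP1, but from 32.1 to 33.1 in H929, and the interaction was -0.81 (SE 0.23, unadjusted p = 0.0177). The ARP1 library labelled knockdown held the lowest UBE2T of all 8. In that library the 20 proliferation genes had a median log2 ratio of -0.22 to their control, against -0.02 in H929, and the part of this in the UBE2T value was not tested.

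The effects of overexpression and knockdown, which share no library, were also set against each other. Limma called 0 of 35 for their difference, against 0.0134% of all genes, and 4 had an unadjusted p under 0.05 (7.98% of all): RAD52, BLM, FANCC and FANCM. For FANCC the difference of effects, 0.76, turned to -0.15 with FPKM weighted by length and to -0.28 without transcripts under 1000 nt. The median difference was 0.12. BLM went from 16.1 to 20.6 with overexpression and from 14.4 to 10.9 with knockdown in ARP1, and from 17.6 to 21.4 and from 16.5 to 15.1 in H929. The steps had opposite signs in both lines, and the difference of effects was 0.55 (unadjusted p = 0.0416, limma adjusted p = 0.621).

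The controls give the scale for all of these. Between the control of overexpression and the control of knockdown limma called 0 of 35 and 0.0537% of all genes, and 3 of 35 had an unadjusted p under 0.05 (10.7% of all), RMI2, ATM and FANCD2. ATM stood at 38.6 and 25.6 in the ARP1 controls and at 56.5 and 41.1 in those of H929 (log2 difference 0.51, limma adjusted p = 0.364). It was 0.26 with FPKM weighted by length and 0.23 without transcripts under 1000 nt. ATM-213, of 595 nt, stood at 7.46 and 1.38 in the ARP1 controls, and at 8.48 and under 0.01 in H929. Past 1.5-fold between the controls were 1 gene in ARP1, RAD51B (16.2% of all genes), and 2 in H929, RAD54B and RMI2 (13.7% of all). Of the 35 genes, as many had an unadjusted p under 0.05 between the controls as between knockdown and its control.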

How the data were processed

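RNA was sequenced as paired ends from poly(A)-selected libraries, per the labels' protocols, which also mention adipose tissue. The authors deposited FPKM per transcript for 8 libraries. The tools were HISAT2 2.0, Bowtie 0.12.2 and StringTie 1.3.0, per the submitters' processing notes. The notes name build mm8, although the transcript identifiers are human. Not given in the sources used here are the human build and the number of runs behind a value that the file calls a mean. Of 88209 transcripts, 87707 matched GENCODE release 29 and were summed per gene.

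Values were log2(FPKM + 1). Fold changes are on that scale, which understates low genes. The 14905 genes at 1 FPKM or more in at least 2 libraries were fitted in limma 3.58.1 (R 4.3.3) with terms for cell line and genotype (3 residual and 3.7 prior degrees of freedom). Tests were two-sided, with Benjamini-Hochberg adjustment over all these genes at 0.05. Every line holds each genotype once per the labels, so the line was the block. On simulated data for the line contrast, 66 of 100 genes shifted by log2 1, 92 of 100 shifted by log2 2 and 11 of 14705 unshifted genes were called. For overexpression these were 41, 82 and 5. No other genes were shifted, and the shifted ones all had a mean log2 level above 2. In the real line contrast 27.1% of tested genes were called, so its adjustment was less strict and these shares do not describe it directly. The 35 genes and the other lists were chosen with earlier results of these data known. Named genes are the 35, called genes of the other lists and, chosen after their values were seen, overlapping genes. No read counts were available to set an error on a single value.

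Alternatives were no filter, a filter at 5 FPKM, a pseudocount of 0.1, 3 other scalings, no block, the libraries of a contrast alone, pooled controls, no trend, robust variances, other sums of transcripts (under 300 nt left out, coding ones alone, weighted by length) and each library left out. Leaving out transcripts under 1000 nt, and an interaction of line and genotype with pooled controls (2 residual degrees of freedom), were added after seeing the data.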

Additional observations from a re-analysis of the deposited data

Results flagged for a closer look

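In each line the 4 libraries of each of the 35 genes were searched for a single value far from the others, which made 70 groups, and chance alone marks about 1 in 20. In 5 groups 1 library stood apart, and 4 of these 5 were libraries labelled knockdown. How often this occurs, or in which libraries, was not counted over all tested genes, so it cannot be read as a trait of these genes. BRCA1 was at 47.1 FPKM in the H929 library labelled knockdown, against 32.5 to 33.8 in the other 3 H929 libraries. RAD51B was at 32.4 in the same library, against 5.53 to 9.92, and FANCM was at 6.45 there, against 9.47 to 10.0. Of that 32.4, 19.7 belonged to RAD51B-215, of 249 nt. The full-length BRCA1-203 was at 15.9 in that library, against 12 to 15.8 in the other 3. RAD52 was at 23.6 in the ARP1 library labelled knockdown, against 14.1 to 15.2. BRIP1 was at 9.86 in ARP1 with overexpression, against 7.18 to 7.49.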

How the results depend on the processing

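The median line difference of the 35 genes was negative in all 22 alternatives, at -0.24 to -0.15 where 1 library was left out. Of the 35, 10 were called between the lines, 6 with no filter and 5 with no replicate block (here the genotype left out of the model), whose cause was not tested. With 1 library left out, 3 to 10 were called, and 1948 to 4136 of all genes, against 4035. Without either knockdown library 10 were called, without either control of overexpression 3, and without each of the other 4 libraries 4. These counts pair up by design, since a library left alone in its genotype adds nothing to the line difference. Both fits of a genotype thus rest on the same remaining pairs of libraries. Why the counts fell was not tested.

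In the genotype contrasts 0 of the 35 were called in each alternative, except UBE2T for knockdown without the H929 library labelled knockdown (log2 -0.75, limma adjusted p = 0.0432). That fit leaves 1 knockdown library, that of ARP1, which is assumed to vary like the other groups, and it called 1005 of all genes. Genes called over the whole table, 1 for overexpression, 2 for knockdown, 2 for their difference and 8 between the controls, moved as follows, and the cause was not tested. For overexpression they were 2 with no filter and 0 with pooled controls, without transcripts under 300 or 1000 nt, or with coding ones alone. For knockdown they were 1 with a pseudocount of 0.1 or TPM-like scaling, 5 with no trend, and 0 with FPKM of at least 5, no replicate block, pooled controls, no transcripts under 300 or 1000 nt, or coding ones alone. For the difference of effects they were 1 with a pseudocount of 0.1, and 0 with no filter, pooled controls, no transcripts under 300 or 1000 nt, or coding ones alone. Between the controls they were 5 with no filter, 2 with no replicate block, 3 without transcripts under 300 or 1000 nt, and 4 with coding ones alone. With 1 library left out they were 0 to 3, 0 to 1005, 0 to 49 and 0 to 14 in that order.

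The median over the 35 genes was 0.08 with median-ratio scaling and 0.10 with pooled controls for overexpression, against 0.06. For the difference of effects it was 0.09 with TPM-like and 0.05 with quantile scaling, against 0.12. With 1 library left out the medians were 0.00 to 0.13 for overexpression, -0.10 to 0.04 for knockdown, -0.03 to 0.21 for their difference and -0.10 to 0.02 between the controls, so that leaving out 1 library could turn the sign in the last 3 of these. Leaving out the block changed no other count of calls by over 1.5 times. Depth in reads is unknown, so small steps of low genes cannot be set against counting error.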
